A study of Mus musculus with 6 samples.

Results

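The transcripts of 10 plasma proteins that hepatocytes secrete, Alb, Ttr, Apoa1, Apoa2, Apob, Apoc3, Apoh, Ahsg, Serpina1a and Hp, were followed as a measure of hepatocyte RNA in libraries of purified liver endothelial cells. The genes were taken by name from the 48897 genes of the deposited table, all 10 were found, and all 10 passed the filter on low counts that left 19033 genes for testing. Sinusoidal endothelial cells, which line the capillaries of the liver, were isolated from C57BL/6 mice aged 7 to 8 weeks, 14 days after partial hepatectomy (PHx), in which part of the liver is cut away, or after sham surgery (Sham). In both groups the cells were selected on magnetic beads carrying anti-CD146, an antibody to an endothelial surface protein. Each group held 3 libraries, numbered 1, 3 and 4. The labels do not say whether each library came from a separate animal, so the p-values rest on the spread among these samples, and that spread may be technical.

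Hepatocytes are the main source of the proteins that circulate in blood plasma, and the messages for these proteins are among the most abundant in that cell type. Endothelial cells of the sinusoids lie close to hepatocytes and are separated from them by enzyme digestion and selection, so hepatocyte messages are often found at low level in endothelial preparations. The members fall into carriers (Alb, Ttr), lipoprotein components (Apoa1, Apoa2, Apob, Apoc3), proteins that bind phospholipid or mineral (Apoh, Ahsg), and acute phase or protease inhibitor proteins (Hp, Serpina1a). Transcription of such genes in hepatocytes is known to rest on HNF1, HNF4 and C/EBP factors bound near the start site.

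The promoters of Alb, Apob and Serpina1a are shown as examples of the carriers, the lipoprotein components and the protease inhibitors. All 10 genes were lowest in PHx 3, and shared regulation was not tested. Each stretch runs from 250 bases before to 50 bases after the start site, 5′ to 3′ on the gene's strand, from RefSeq on GRCm38.p6. Capitals mark the matches to GTTAAT, the core of the HNF1 site, to TTGCNNAA, a C/EBP site, and to TATAAA, each read on both strands; no printed matches overlapped.
Alb, chr5:90460620-90460919, plus strand: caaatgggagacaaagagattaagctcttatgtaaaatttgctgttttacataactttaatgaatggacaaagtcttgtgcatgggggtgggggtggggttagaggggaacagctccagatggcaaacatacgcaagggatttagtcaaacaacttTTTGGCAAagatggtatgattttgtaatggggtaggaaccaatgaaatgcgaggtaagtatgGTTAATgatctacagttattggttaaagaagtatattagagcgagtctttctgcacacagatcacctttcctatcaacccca
Apob, chr12:7977427-7977726, plus strand: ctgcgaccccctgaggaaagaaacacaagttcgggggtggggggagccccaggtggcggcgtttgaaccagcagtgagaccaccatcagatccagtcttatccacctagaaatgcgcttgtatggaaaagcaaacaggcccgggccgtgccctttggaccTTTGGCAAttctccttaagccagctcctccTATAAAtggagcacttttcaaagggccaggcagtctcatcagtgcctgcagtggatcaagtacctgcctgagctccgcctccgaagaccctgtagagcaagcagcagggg
Serpina1a, chr12:103863570-103863869, minus strand: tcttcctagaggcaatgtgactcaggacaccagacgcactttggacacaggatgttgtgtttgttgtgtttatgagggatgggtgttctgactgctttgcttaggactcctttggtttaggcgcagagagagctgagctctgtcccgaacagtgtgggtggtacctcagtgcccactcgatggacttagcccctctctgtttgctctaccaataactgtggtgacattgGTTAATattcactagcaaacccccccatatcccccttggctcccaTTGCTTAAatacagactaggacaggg
Of the 10 genes, 7 had a promoter that was searched (Alb, Apoa1, Apoa2, Apob, Apoh, Ahsg and Serpina1a). Apoa2 had more than 1, so 8 promoters were searched. Matches are counted per gene for the 7 genes and per promoter for the percents beside them. The C/EBP letters were found for 5 of the 7 genes (Alb, Apoa2, Apob, Ahsg, Serpina1a) and in 10.8% of 32851 promoters of the same length. GTTAAT was found for Alb and Serpina1a, at positions -32 and -21 from the start site, and in 7.1% of the promoters. TATAAA was found for Apoa2 and Apob (13.6% of the promoters), at positions -212 and -60. The Apoa2 match was in a different promoter from its C/EBP letters. The full HNF1 palindrome and the HNF4 letters CAAAGTCCA were found for 0 of the 7, and in 0.00913% and 0.475% of the promoters. These matches describe letters, not bound sites.

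The libraries held 38765116 to 51888481 counts. The label was checked against 10 sinusoidal endothelial markers (among them Stab1, Stab2, Lyve1 and Clec4g), which summed to 16022 to 25364 CPM (counts scaled to a common library size, here by the trimmed mean of M-values, TMM) in PHx and 30073 to 31552 in Sham libraries. None of these markers was at 0 in any library, 0 passed edgeR's test (adjusted p under 0.05) and 9 of the 10 were lower in PHx at an unadjusted p under 0.05, as were 4.73% of all tested genes. PHx 4 stood apart by its neutrophil markers, 14 genes that summed to 5376 CPM there, against 42.2 to 930 CPM in the other 5 libraries, and none of which was at 0 in any library. Stellate cell and fibroblast markers, 11 genes, summed to 5370 to 6926 CPM in PHx and 1801 to 2328 in Sham libraries, and 8 of the 11 were called higher. Of 8 mesothelial markers 2 were called higher, where 0.846% of all tested genes were. All of these calls were lost without Sham 4, when 0 genes of the whole table were called higher, and 6 were without Sham 3. In either direction 0 were called among 10 general endothelial, 11 Kupffer cell, 7 cholangiocyte, 14 neutrophil and 5 tested erythroid markers. The part of these other cells in the results below was not tested.

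Together the 10 transcripts made up a small share of each library, and PHx 3 held the least. They took 0.149% of all counts in PHx 1, 0.0631% in PHx 3 and 0.152% in PHx 4, against 0.120%, 0.177% and 0.153% in Sham 1, 3 and 4. Wilson 95% intervals of these shares, which cover counting error only, ran from 0.0624% to 0.0638% for PHx 3 and from 0.175% to 0.178% for Sham 3, the library with the largest share. On the TMM scale the sums were 1400, 641 and 1534 CPM in PHx 1, 3 and 4 and 1234, 1772 and 1548 CPM in Sham 1, 3 and 4. PHx 1 and PHx 4 lay within the range of the Sham libraries, and PHx 3 lay below all other libraries, 2.76-fold under Sham 3. The groups averaged 1192 ± 482 CPM in PHx and 1518 ± 270 CPM in Sham (SD, n = 3 each), a log2 difference of -0.43, against a pooled SD of 0.52 on the log2 scale. Without PHx 3 the log2 difference was -0.03. In bulk RNA, fewer hepatocytes and less RNA per hepatocyte cannot be told apart.

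**Figure D1:**
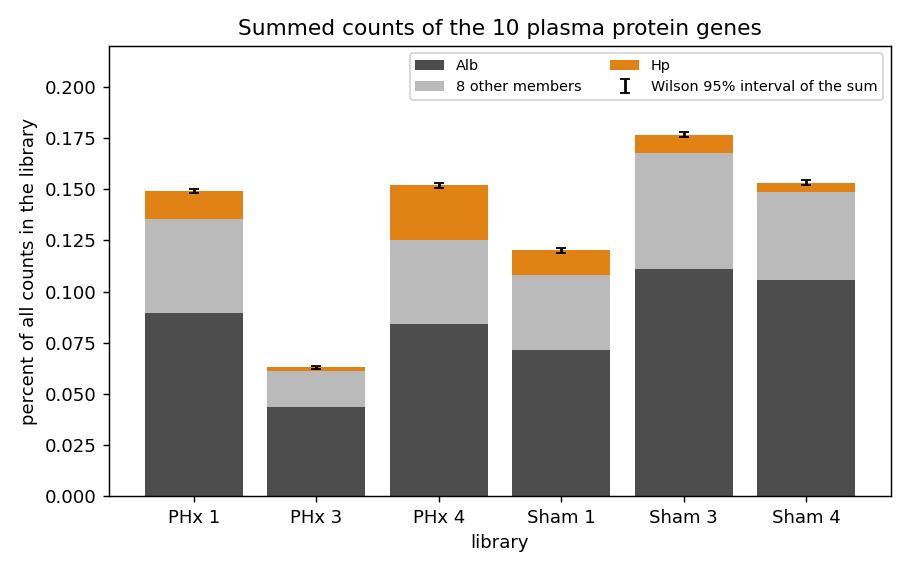
Percent of all counts in each library that fell on Alb, on Hp and on the 8 other genes (stacked bars; the whisker is the Wilson 95% interval of the sum). PHx 3 stands at 0.0631%, and the other 5 libraries between 0.120% and 0.177%.

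Alb, the albumin gene and the carrier of fatty acids and hormones in plasma, lies on chromosome 5 (90460870 to 90476602, mm10) and was the most abundant of the 10. Its deposited RPKM, counts divided by gene length and library size, were 433, 211 and 408 in PHx 1, 3 and 4 and 348, 539 and 512 in Sham 1, 3 and 4. It ranked between place 50 (Sham 3) and place 209 (PHx 3) among the 19033 tested genes by RPKM. Per length, Alb was above each of the other 9 genes without overlap of their ranges over the 6 libraries. Hp, Apoa1 and Ahsg followed with means of 83.4 ± 65.2, 79.4 ± 27.4 and 75.1 ± 26.0 RPKM (SD over 6 libraries), and their ranges overlapped. Ttr averaged 46.5, Apoa2 32.2, Serpina1a 15.5, Apoc3 14.0, Apoh 12.9 and Apob 4.85 RPKM. Each neighbouring pair below Alb overlapped in range, but within the libraries the order was steadier: Ahsg exceeded Ttr, Ttr exceeded Apoa2, Apoa2 exceeded Serpina1a and Apoh exceeded Apob in 6 of 6. Hp exceeded Apoa1 in 3 of 6 libraries.

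**Figure D2:**
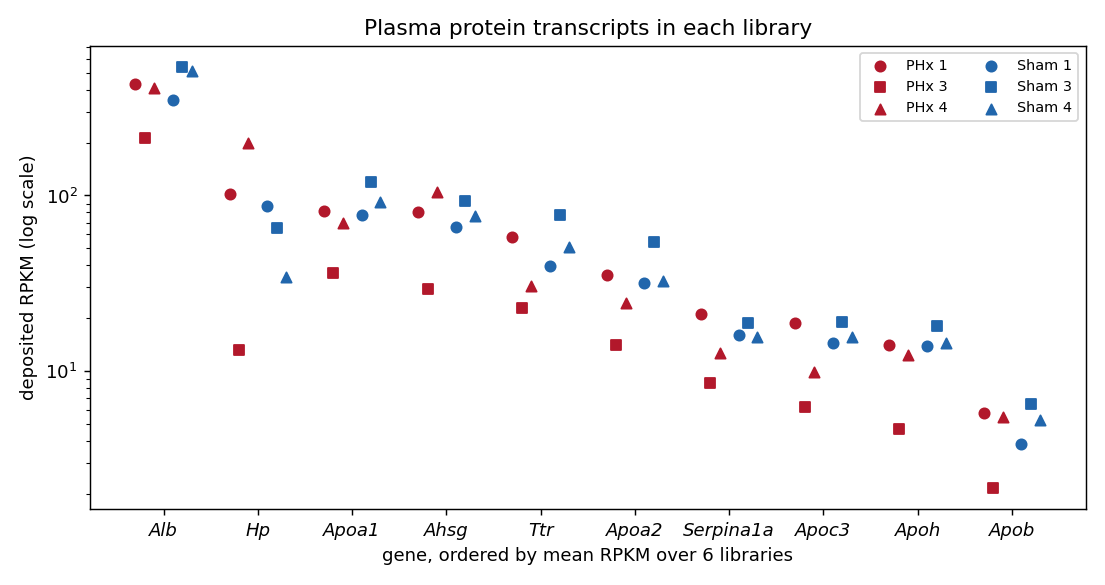
Deposited RPKM of each gene (log axis) in every library, ordered by the mean over 6 libraries; red marks are PHx, blue marks Sham. The PHx 3 square is the lowest mark for all 10 genes, and PHx 4 is the highest for Hp and Ahsg.

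The next comparison asked whether the 10 transcripts were higher or lower after PHx than after sham surgery. None of the 10 passed edgeR's quasi-likelihood test at a Benjamini-Hochberg adjusted p under 0.05 over all genes, where 0.862% of all tested genes passed, 0.846% as higher and 0.0158% as lower in PHx. Their adjusted p ranged from 0.420 to 0.895. The count was also 0 at an unadjusted p under 0.05 (12.7% of all tested genes, 4.73% in the lower direction) and 0 by DESeq2 and by limma-voom. The log2 fold change was negative for 9 of the 10 and had a median of -0.50, against 0.03 over all tested genes, of which 47% were negative. All 10 genes were lowest in PHx 3, as were 14.9% of all tested genes. Sham 3 was the highest library for 7 of the 10. Without PHx 3, 7 of the 10 log2 fold changes stayed negative and all 10 were higher than with it. Without PHx 4 all 10 were negative, and 9 of the 10 were negative without any other single library.

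Among the carriers, Alb stood at 839, 442 and 849 CPM in PHx 1, 3 and 4 and at 736, 1114 and 1066 CPM in Sham 1, 3 and 4. PHx 1 and PHx 4 lay between the Sham libraries and PHx 3 below them. The log2 fold change was -0.45 ± 0.28 (SE, n = 3 per group, adjusted p = 0.534 in edgeR), with a 95% interval from -1.11 to 0.21, and -0.21 without PHx 3. Ttr, which carries thyroid hormone and retinol-binding protein (chromosome 18, 20665250 to 20674326), stood at 66.8, 28.2 and 37.8 CPM in PHx and 49.7, 94.2 and 62.4 CPM in Sham 1, 3 and 4. The Ttr groups overlapped through PHx 1, with a log2 fold change of -0.64 ± 0.38. That value was -1.07 without PHx 1, -0.40 without PHx 3 and -0.37 without Sham 3.

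The lipoprotein components were all lowest in PHx 3. Apoa1, the main protein of high-density lipoprotein (chromosome 9, 46228630 to 46230469), stood at 76.2, 36.2 and 69.8 CPM in PHx and 78.3, 119 and 91.4 CPM in Sham 1, 3 and 4. Its PHx libraries lay below the Sham libraries, but PHx 1 and Sham 1 were close, and the log2 fold change of -0.66 ± 0.30 did not pass (edgeR adjusted p = 0.420). It was -0.41 without PHx 3. Apoa2, a second protein of high-density lipoprotein (chromosome 1, 171221564 to 171226379), had 31.1, 13.4 and 23.0 CPM in PHx and 30.5, 51.3 and 31.0 CPM in Sham, and its groups overlapped. Its log2 fold change of -0.74 ± 0.35 was the most negative of the 10 (adjusted p = 0.438), and was -0.48 without PHx 3 and also without Sham 3. Apoa2 overlaps the opposite-strand gene Tomm40l at its start, and since the use of strand in counting was not given, reads there cannot be told apart. Tomm40l had 825 to 1243 counts per library over its whole length. In PHx 3 it had 1019 counts, against 656 for Apoa2. Ttr and Ahsg overlap the opposite-strand genes Gm16090 and Gm30505, which had at most 28 counts in any library.

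Apob, the large structural protein of very low-density and low-density lipoprotein (chromosome 12, 7977634 to 8016839), had 76.2, 30.6 and 77.7 CPM in PHx and 55.0, 90.8 and 74.8 CPM in Sham. PHx 1 and PHx 4 were above 2 of the 3 Sham libraries, and the log2 fold change was -0.26 ± 0.38. It was 0.06 without PHx 3 and -0.10 without Sham 3, and between -0.46 and -0.45 without PHx 1, PHx 4 or Sham 1. Apoc3, an inhibitor of triglyceride clearance that lies beside Apoa1 (chromosome 9, 46233050 to 46235636), had 13.1, 4.71 and 7.50 CPM in PHx and 11.1, 14.3 and 11.8 CPM in Sham, with a log2 fold change of -0.55 ± 0.35. It was -1.03 without PHx 1 and -0.27 without PHx 3. PHx 1 lay above 2 of the 3 Sham libraries. The lowest Apoc3 count was 230 in PHx 3, the lowest of any of the 10 genes in any library, with an exact Poisson 95% interval from 201 to 262.

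Apoh, a phospholipid-binding protein also called beta-2-glycoprotein 1 (chromosome 11, 108395297 to 108414396), had 15.8, 5.63 and 14.8 CPM in PHx and 17.0, 21.4 and 17.4 CPM in Sham. All its PHx libraries lay below all Sham libraries, with a log2 fold change of -0.62 ± 0.37 (edgeR adjusted p = 0.522), which was -0.29 without PHx 3. Apoa1 and Apoh were the 2 of the 10 whose groups did not overlap, both with PHx below Sham, where 20.5% of all tested genes did not overlap and 9.96% had PHx below Sham. Ahsg, the mineral-binding fetuin-A (chromosome 16, 22892015 to 22899451), had 115, 45.3 and 160 CPM in PHx and 103, 142 and 117 CPM in Sham, so PHx 4 was the highest library and PHx 3 the lowest. Its log2 fold change was -0.18 ± 0.44. It was 0.18 without PHx 3, -0.59 without PHx 4, -0.30 without Sham 1 and -0.07 without Sham 3.

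Serpina1a, an alpha-1-antitrypsin that inhibits neutrophil elastase (chromosome 12, 103853295 to 103863619), had 38.6, 16.8 and 24.9 CPM in PHx and 32.1, 36.6 and 30.6 CPM in Sham. The log2 fold change was -0.31 ± 0.28, and the groups overlapped. It was -0.68 without PHx 1 and -0.07 without PHx 3. Mice carry several near-identical copies of this gene, and 40.7% of the 150-base windows of its longest GENCODE coding transcript also occur in Serpina1c. The authors' counting could therefore split or share reads between them, and the value of Serpina1a alone is uncertain. None of the 150-base windows of the other 9 genes occurred in a transcript of another gene. Relative to 100 counts of the 10 genes, Serpina1c had 4.19, 4.05 and 1.58 counts in PHx 1, 3 and 4 and 4.09, 3.30 and 3.71 in Sham. Serpina1e, a relative that shares only 7.57% of its windows, had 15.0, 18.4 and 1.25 counts in PHx and 17.0, 12.7 and 11.9 in Sham on that scale, so PHx 4 was far below the other 5 libraries.

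Hp was lowest in PHx 3 like the other 9 genes, but its values spread far more. Haptoglobin binds free hemoglobin, rises in the acute phase response and is also made by developing neutrophils. Hp (chromosome 8, 109575128 to 109579172) had 128, 17.9 and 270 CPM in PHx 1, 3 and 4 and 121, 88.5 and 46.5 CPM in Sham 1, 3 and 4. Its highest and lowest libraries were both PHx and 15.0-fold apart, where the other 9 genes spanned 2.30-fold (Serpina1a) to 3.82-fold (Apoa2). The log2 fold change was 0.70 ± 0.94 with a 95% interval from -1.68 to 3.08 (edgeR adjusted p = 0.784). It was -0.22 without PHx 4, 1.21 without PHx 3 and 0.36 without Sham 4. Per 100 counts of the other 9 genes, Hp had 10.1, 2.88 and 21.3 counts in PHx 1, 3 and 4 and 10.9, 5.26 and 3.10 in Sham 1, 3 and 4. S100a9, an abundant neutrophil granule transcript, had 223, 9.56 and 1440 CPM in PHx 1, 3 and 4 and 140, 69.4 and 10.8 CPM in Sham 1, 3 and 4. Both measures were highest in PHx 4 and lowest in PHx 3, and the order of the libraries differed only in that PHx 1 and Sham 1 changed places. Mean neutrophil marker level over 14 genes was 4.95, 0.82 and 7.11 log2 CPM in PHx and 3.54, 2.99 and 0.88 in Sham. The part of neutrophils in the Hp values was not tested.

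**Figure D3:**
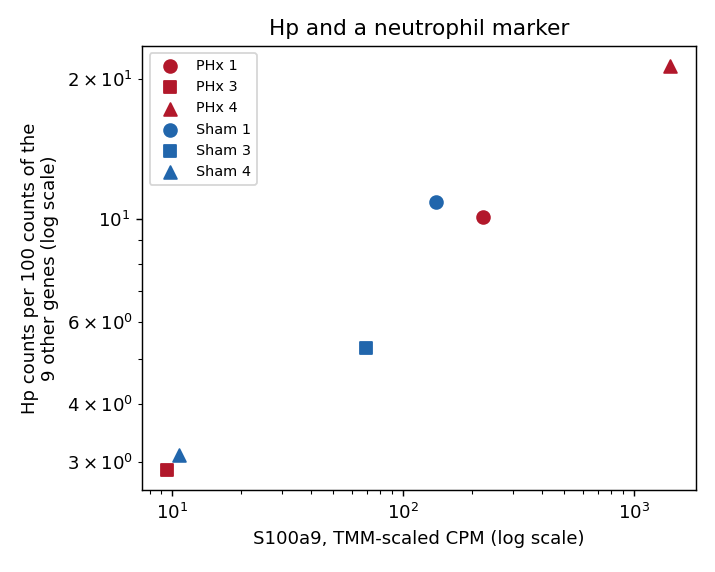
Hp counts per 100 counts of the 9 other genes against S100a9 in TMM-scaled CPM, both on log axes, 1 mark per library. Hp runs from 2.88 in PHx 3, where S100a9 is 9.56 CPM, to 21.3 in PHx 4, where S100a9 is 1440 CPM.

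Divided by their own sum, the transcripts varied far less than their levels did. The highest and lowest of the 6 libraries differed by a median of 1.73 on the log2 scale in CPM, and by 0.70 when each gene was given as a share of the summed counts of the 10. Relative to Alb counts, the median range of the other 9 genes was 0.82. Without PHx 4 the median range of the shares was 0.38. With Hp left out, Alb took 66.0%, 71.0% and 67.2% of the remaining counts in PHx 1, 3 and 4 and 66.1%, 66.2% and 71.0% in Sham. Since Alb is most of this sum, its own share can change little. Apoa1 took 5.99%, 5.81% and 5.52% in PHx and 7.04%, 7.05% and 6.09% in Sham, and was the one of these 9 whose PHx shares lay below all Sham shares. Apob took 4.91% to 6.15% in PHx and 4.94% to 5.40% in Sham. Although PHx 3 held the least of these transcripts, its shares lay within the range of the other libraries for 5 of the 9 genes. Of the 4 others, Apob, Apoh and Ahsg had their lowest share there and Alb its highest.

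The proportions in PHx 4 departed from this for several genes. There Ahsg took 12.6% of the counts of the 9 genes, against 7.27% to 9.27% in the other libraries, and Ttr took 2.99%, against 4.16% to 5.60%. Apoa1, Apoa2, Apoc3 and Serpina1a also had their lowest shares in PHx 4, at 5.52%, 1.82%, 0.593% and 1.97%. The summed level in PHx 4 was nevertheless within the Sham range.

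**Figure D4:**
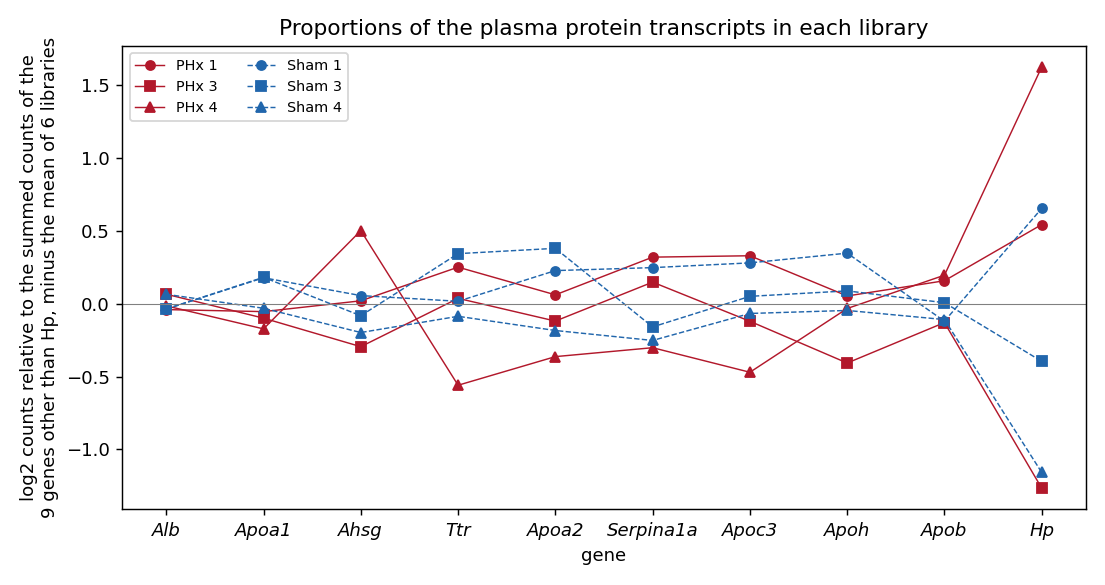
Log2 counts of each gene relative to the summed counts of the 9 genes other than Hp, with the mean of the 6 libraries subtracted; lines join the values of 1 library. Alb and Apob stay close to 0, PHx 4 is high for Ahsg and low for Ttr and Apoc3, and Hp spreads the most. Alb is most of the sum it is divided by, so it can move little here.

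Other hepatocyte genes were set beside the 10. Of 40 other plasma protein genes, 1 was called higher, 0 lower and 39 did not pass. Over all tested genes 0.846% were called higher and 0.0158% lower, the shares to set beside this and each hepatocyte list below. Their median log2 fold change was -0.40, and 32 of the 40 were lowest in PHx 3, as were 14.9% of all tested genes. The called gene was C3, the central complement component, which macrophages and fibroblasts also make, at 1257, 754 and 1299 CPM in PHx and 428, 476 and 435 CPM in Sham (log2 fold change 1.31 ± 0.22, edgeR adjusted p = 0.0462). The C3 call was lost with limma-voom, with the replicate number as a block and on leaving out any single library but PHx 3, with adjusted p over 13 other fits from 1.08e-06 to 0.244. Summed per 100 counts of the 10 genes, the 40 genes gave 270, 271 and 242 counts in PHx and 212, 163 and 159 in Sham. C3 alone gave 89.7, 118 and 84.7 of these in PHx and 34.7, 26.9 and 28.1 in Sham. Of 46 genes for hepatocyte enzymes, transporters and receptors, 45 were tested and 0 were called, with a median of -0.35; 26 were lowest in PHx 3 and 11 in PHx 4. Among the most abundant of them per length were Fabp1, a fatty acid binding protein, Ass1, a urea cycle enzyme, and Bhmt, a methyltransferase of methionine metabolism. Ass1 had 68.8, 33.5 and 34.7 CPM in PHx and 47.7, 61.8 and 63.3 CPM in Sham, and Fabp1 had 20.4, 16.7 and 4.60 CPM in PHx and 11.9, 25.4 and 15.9 CPM in Sham. Bhmt had 73.4, 23.4 and 32.7 CPM in PHx and 39.0, 50.5 and 43.9 CPM in Sham.

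Summed over all 46, these intracellular genes gave 62.5, 71.1 and 39.6 counts per 100 counts of the 10 plasma protein genes in PHx 1, 3 and 4 and 53.9, 53.3 and 53.1 in Sham. The Sham libraries were nearly equal, and the PHx libraries lay on both sides of them. When the libraries were scaled to these intracellular genes in place of TMM, a choice made after the data were seen, 7 of the 10 members had a negative log2 fold change, Alb stood at -0.11, Apob at 0.06 and Ahsg at 0.14, and none was called. That scaling moves the median of all tested genes to 0.42. Of 11 periportal hepatocyte genes 0 were called and 9 were lowest in PHx 3, with a median of -0.42. Besides Ass1, the most abundant were Pck1, the gluconeogenic enzyme (55.7, 23.8 and 40.2 CPM in PHx, 44.5, 66.2 and 49.1 CPM in Sham), the arginase Arg1 and the cytochrome Cyp2f2. Arg1 had 22.8, 17.4 and 21.0 CPM in PHx and 13.4, 17.4 and 15.2 CPM in Sham, and Cyp2f2 had 21.3, 10.7 and 6.79 CPM in PHx and 25.9, 26.9 and 26.0 CPM in Sham. Of 9 tested pericentral genes 0 were called and 5 were lowest in PHx 3, with a median of 0.49. Over all tested genes 14.9% were lowest in PHx 3. The most abundant pericentral gene, Glul, the glutamine synthetase that several other cell types also make, had 632, 853 and 907 CPM in PHx and 720, 675 and 669 CPM in Sham, and so was not lowest in PHx 3. Oat, an ornithine aminotransferase, had 94.9, 113 and 161 CPM in PHx and 94.9, 69.5 and 94.3 CPM in Sham. The cytochrome Cyp2e1, by contrast, was lowest in PHx 3, at 30.5, 13.4 and 40.3 CPM in PHx and 25.6, 42.5 and 28.1 CPM in Sham, as was Cyp1a2, at 12.4, 2.87 and 9.35 CPM in PHx and 5.09, 10.2 and 5.38 CPM in Sham.

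Of 12 genes for other apolipoproteins and lipoprotein assembly, 0 were called, with a median of -0.35. Apoe, which macrophages and stellate cells make as well as hepatocytes, averaged 1592 ± 446 RPKM over 6 libraries, above Alb, and had 1883, 2105 and 1707 CPM in PHx and 2807, 3377 and 3323 CPM in Sham (log2 fold change -0.74 ± 0.16, edgeR adjusted p = 0.103). PHx 3 was the highest PHx library for Apoe, unlike for the 10. Apoc1 had 28.1, 16.5 and 13.7 CPM in PHx and 21.2, 27.8 and 24.4 CPM in Sham. Pltp, the phospholipid transfer protein, had 49.0, 45.3 and 29.3 CPM in PHx and 46.8, 29.8 and 31.0 CPM in Sham, and Apoc4 had 4.54, 1.39 and 2.56 CPM in PHx and 3.26, 4.52 and 3.07 CPM in Sham.

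Of 18 acute phase genes, which the liver makes more of in inflammation, 17 were tested, 0 were called, and the median log2 fold change was 0.47. Summed, they had 1049, 608 and 2905 CPM in PHx 1, 3 and 4 and 738, 560 and 458 CPM in Sham, highest in PHx 4, the library with the most neutrophil marker RNA; the part of neutrophils in this was not tested. The most abundant per length were the metallothioneins Mt1 and Mt2, the metalloreductase Steap4 and Lcn2, a neutrophil granule protein that the neutrophil list also holds. Steap4 had 515, 232 and 1671 CPM in PHx and 198, 136 and 83.1 CPM in Sham (log2 fold change 2.54 ± 0.82, edgeR adjusted p = 0.320). Of the 2905 CPM of the list in PHx 4, Steap4 gave 1671 and Lcn2 446. The size of the sum there thus rests largely on these genes. The mean level over the 17 tested genes was also highest in PHx 4. It was 4.26, 2.23 and 4.95 log2 CPM in PHx 1, 3 and 4 and 3.79, 3.09 and 2.61 in Sham 1, 3 and 4. Mt1 had 100, 141 and 235 CPM in PHx and 143, 133 and 143 CPM in Sham. Of 14 transcription factors of hepatocytes 1 was called higher, where 0.846% of all tested genes were. It was Nr1h4, the bile acid receptor, with 44.4, 40.7 and 53.4 CPM in PHx and 25.2, 22.1 and 18.0 CPM in Sham (log2 fold change 1.09 ± 0.16, edgeR adjusted p = 0.0353). The Nr1h4 call was lost with limma-voom, with the replicate number as a block and on leaving out any single library but PHx 4, with adjusted p over 13 other fits from 5.76e-06 to 0.205.

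The major urinary proteins, a family of near-identical carrier proteins that male mouse hepatocytes secrete in large amounts, parted from the 10 in a single library. Of 21 listed genes 14 were tested, 0 were called and the median log2 fold change was -1.17, and all 14 were lowest in PHx 4. Summed per 100 counts of the 10 genes, they gave 14.5, 17.0 and 0.405 counts in PHx 1, 3 and 4 and 17.3, 15.5 and 15.4 in Sham 1, 3 and 4. In 5 libraries their proportion to the plasma protein transcripts was between 14.5 and 17.3, PHx 3 included, and in PHx 4 it was far lower. Mup3 had 55.3, 26.6 and 3.69 CPM in PHx and 66.7, 97.8 and 81.9 CPM in Sham, and Mup20 had 47.6, 27.8 and 2.00 CPM in PHx and 34.5, 58.5 and 68.4 CPM in Sham. Mup7 had 2532, 1197 and 0 counts in PHx and 1833, 2479 and 1788 counts in Sham, and Mup17 had 14.4, 8.91 and 0.354 CPM in PHx and 24.8, 26.9 and 16.5 CPM in Sham. Reads can be shared between these copies, so the value of any single gene is uncertain.

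**Figure D5:**
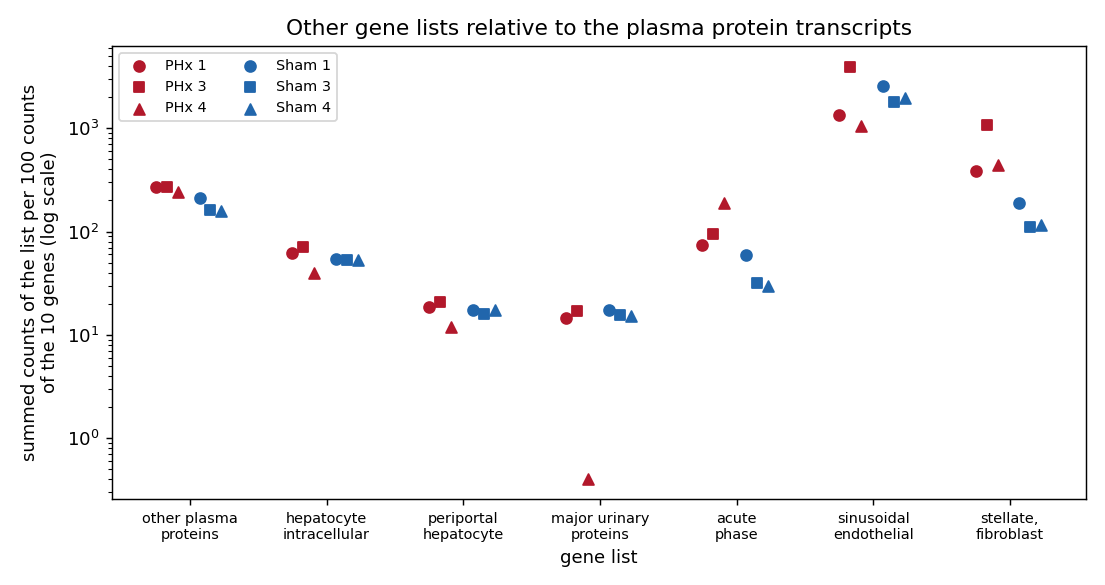
Summed counts of 7 gene lists per 100 counts of the 10 plasma protein genes (log axis), 1 mark per library, red PHx and blue Sham. The major urinary proteins lie between 14.5 and 17.3 in 5 libraries and at 0.405 in PHx 4. The sinusoidal endothelial list is highest in PHx 3, as are the other plasma protein, hepatocyte intracellular, periportal and stellate lists. The 10 genes by which they are divided are lowest there. In CPM the sinusoidal endothelial sum of PHx 3, 25364, was below those of the Sham libraries (30073 to 31552).

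The genes whose pattern over the 6 libraries was most like the summed 10 were sought among 11028 other genes with at least 5 CPM on average. By Pearson's r of log2 CPM, given here as a description, the first 8 included Agt (0.99), Itih1 (0.99), Stx8 (0.98), F12 (0.98), Zkscan6 (0.97), Atox1 (0.97) and Plg (0.97). Agt (angiotensinogen), Itih1, F12 (coagulation factor XII) and Plg (plasminogen) are plasma proteins of hepatocytes. The highest and lowest libraries were 2.32-fold apart for Agt and 4.14-fold for Itih1, against 2.76-fold for the sum. Stx8, Zkscan6 and Atox1 spanned 1.32-fold to 1.35-fold, so their high r came with a far smaller range. Of the first 50 genes, 14 were in the hepatocyte lists, as were 0.934% of the 11028.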

How the data were processed

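RNA of 6 libraries was measured by sequencing. For each gene and library the authors deposited a raw count and an RPKM, per the file headers. Base calling with bcl2fastq, alignment software TopHat2 2.0.13 and build mm10 (GRCm38) appear in the submitters' processing notes. The counting program, annotation and use of strand are not given in the sources used here. The deposited RPKM equalled the count divided by listed length and summed counts, times a constant, in 100% of values (relative tolerance 1e-06). Columns were matched to samples by title.

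The test was edgeR 4.0.16 (R 4.3.3; TMM scaling, filterByExpr, robust quasi-likelihood F-test, group as the only term), with Benjamini-Hochberg adjustment over 19033 genes and a threshold of 0.05. Standard errors were obtained from each log2 fold change and its F statistic, and intervals use the fit's degrees of freedom. Values are TMM-scaled CPM unless RPKM is named; means of lists are on log2 CPM (prior count 2). The procedure was tested on simulated counts. DESeq2 1.42.0 and limma 3.58.1 (voom), other scalings and filters, a replicate block and leaving out each library were alternatives. A count of 0 allows up to 3 counts.

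The 10 genes and the lists were chosen with earlier results of these data known. By rule, from each other hepatocyte list the called genes, or else up to 4 of highest mean RPKM, were named, plus the 8 genes most like the sum; other cell lists are given as counts. Of the genes the rule takes, 2 are not reported here. The Serpina1 relatives and the genes of the closing section were named after their values were seen. Promoters were read from a RefSeq table (GRCm38.p6) and transcript windows from GENCODE M21 (GRCm38); chromosome 18 promoters were not used here.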

Additional observations from a re-analysis of the deposited data

How the results depend on the processing

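None of the 10 genes was called in any fit, and 135 of 140 values under alternatives kept their direction. The 5 others were Apob (0.058) and Ahsg (0.18) without PHx 3, Hp (-0.22) without PHx 4, and Apob (0.064) and Ahsg (0.14) with scaling to hepatocyte intracellular genes; the cause was not tested. When 1 library was left out, Apob ran from -0.463 to 0.058, Ahsg from -0.59 to 0.18 and Hp from -0.22 to 1.21. Over all genes 161 were called higher and 3 lower; DESeq2 gave 719 and 122, leaving low counts unfiltered 359 and 30, limma-voom 94 and 1, and an adjusted p under 0.01 gave 16 and 1. With the replicate number as a block they were 14 and 1. Deviations from the group means correlated by -0.09, -0.23 and 0.03 between libraries of the same number. Each PHx library correlated most with a Sham library of another number: PHx 1 with Sham 3, PHx 3 with Sham 4 and PHx 4 with Sham 1. Such deviations sum to 0 within each group of 3, so these few values do not settle whether the numbers are pairs. The main fit did not take them as pairs. Leaving out each library gave 0 to 160 higher and 0 to 9 lower genes, and the summed-level difference ran from -0.66 (without PHx 4) to -0.03 (without PHx 3). That difference was -0.35 without Alb, -0.50 without Hp and -0.07 relative to hepatocyte intracellular genes. Median ranges of shares ran from 0.38 to 0.70 when a library was left out. Counts of the 10 genes were at least 230 per library, so counting error was small beside the spread between libraries.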

Other observations

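Genes known for male-biased expression in mouse hepatocytes followed the major urinary proteins in PHx 4; they were chosen after the values were seen and carry no test here. Elovl3, a fatty acid elongase, had 185, 87 and 0 counts in PHx 1, 3 and 4 and 167, 215 and 70 counts in Sham 1, 3 and 4. Hsd3b5, a steroid dehydrogenase, had 112, 29 and 0 counts in PHx and 80, 119 and 153 counts in Sham. Slco1a1, an organic anion transporter, had 95, 40 and 1 counts in PHx and 70, 214 and 151 counts in Sham, and Cyp4a12a, a fatty acid hydroxylase, had 252, 79 and 4 counts in PHx and 121, 190 and 199 counts in Sham. Cyp2d9, a steroid hydroxylase of a family of similar genes, had 0.944, 1.01 and 0.133 counts per 100 counts of the 10 plasma protein genes in PHx and 1.08, 1.12 and 1.03 in Sham. In PHx 3, where the 10 genes were lowest, Cyp2d9 was close to the proportion of the Sham libraries, and in PHx 4 it was far lower.

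The Y-linked gene Ddx3y had 4537, 5089 and 5560 counts in PHx 1, 3 and 4 and 2618, 3617 and 3819 counts in Sham, while Xist had 18 counts or fewer in every library. Transcripts of this Y-linked gene were thus present in all 6 libraries, PHx 4 included. No other Y-linked gene is given here.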
